A study of Mus musculus with 10 samples.

Results

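The enteric nervous system is a network of neurons and glia within the gut wall that controls motility, secretion and blood flow. Its neurons use acetylcholine, nitric oxide and peptides as transmitters, and its glia surround them and resemble Schwann cells and astrocytes. The 39 genes described here, 30 neuronal and 9 glial, were selected by their symbols out of the 29320 genes of the deposited count table. Of these, 38 (29 neuronal and 9 glial) passed the filter on low counts, as did 20472 of all genes. Th, the rate-limiting enzyme of catecholamine synthesis, was the member that did not pass, with 0 to 10 counts per library.

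RNA of colon tissue was sequenced from 4 groups of 8-week-old female mice on Day 5. The groups were DSS-treated ERdj5-KO mice (3 libraries), untreated ERdj5-KO mice (2), DSS-treated WT mice (3) and untreated WT mice (2). DSS, a polymer that damages the lining of the colon and causes colitis, was given at 2% in the drinking water for 5 days. ERdj5, encoded by Dnajc10, is a disulfide reductase of the endoplasmic reticulum. The KO mice came as a line from a resource center and the WT C57BL/6 mice from a vendor, the sources used here name no driver that limits the deletion to a cell type, and they do not say whether KO and WT mice were littermates. The sequencing is described with 3 mice per group, whereas the labels list 2 untreated libraries per genotype, and which mouse gave which library is not stated. The p-values reflect variation among these libraries.

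Libraries held between 49689389 and 72197887 counted reads, and the 39 genes took 0.0473% to 0.0785% of them. Dnajc10 had 18.4 to 30.4 CPM in the KO libraries and 113 to 140 CPM in the WT libraries (CPM, the usual depth-scaled count unit, here with TMM factors, which also allow for library composition), so that the counts followed the genotype labels. DSS-treated KO library 4 had the lowest value of all 10 libraries for 26 of the 38 members (18.0% of all tested genes), and untreated KO library 3 the highest for 24 (16.7% of all tested genes). The neuron markers Elavl4, Uchl1 and Prph and the glia markers S100b and Sox10 had counts in every library. The 14 epithelial markers summed to 15162 to 22877 CPM in DSS-treated KO, 20638 and 22324 CPM in untreated KO, 19332 to 21314 CPM in DSS-treated WT and 20960 and 22156 CPM in untreated WT colons. In such bulk RNA, fewer cells of a type and less RNA per cell cannot be told apart.

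The sequences just before the start of transcription are shown for the 5 members with the largest called decreases between DSS-treated KO and DSS-treated WT colons among the 27 members with a RefSeq promoter entry, and for Tac1, the 1 member called in the other direction. Each is the last 150 bases before the start, 5′ to 3′ on the strand of the gene, on GRCm38.p6. Capitals mark TGACG on either strand, the core of the cAMP response element, a motif bound by the CREB family of transcription factors.
S100b, chr10:76253686-76253835, plus strand: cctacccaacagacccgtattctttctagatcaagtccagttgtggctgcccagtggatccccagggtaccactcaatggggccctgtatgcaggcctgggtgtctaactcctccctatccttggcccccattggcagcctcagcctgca
Nmu, chr5:76363778-76363927, minus strand: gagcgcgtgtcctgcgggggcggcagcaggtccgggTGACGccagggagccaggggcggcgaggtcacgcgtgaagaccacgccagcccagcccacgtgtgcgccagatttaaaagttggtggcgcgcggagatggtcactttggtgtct
Scg2, chr1:79440027-79440176, minus strand: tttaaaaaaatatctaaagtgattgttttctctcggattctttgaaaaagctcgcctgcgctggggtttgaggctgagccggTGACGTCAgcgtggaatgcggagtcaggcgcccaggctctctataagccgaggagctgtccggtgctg
Ngfr, chr11:95587699-95587848, minus strand: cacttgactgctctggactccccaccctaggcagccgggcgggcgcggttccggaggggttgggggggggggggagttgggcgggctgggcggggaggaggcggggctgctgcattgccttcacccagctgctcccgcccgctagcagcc
Chrna3, chr9:55026563-55026712, minus strand: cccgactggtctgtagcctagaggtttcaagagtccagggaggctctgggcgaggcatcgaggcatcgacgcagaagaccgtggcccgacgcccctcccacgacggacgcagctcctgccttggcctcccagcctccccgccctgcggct
Tac1, chr6:7554911-7555060, plus strand: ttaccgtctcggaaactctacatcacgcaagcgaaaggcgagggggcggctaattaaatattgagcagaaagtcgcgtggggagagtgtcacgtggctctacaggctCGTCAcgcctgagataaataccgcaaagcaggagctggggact
The motif TGACG stood in this window in 9 of the 27 members (Cartpt, Elavl4, Nmu, Nos1, Scg2, Scg3, Tac1, Th and Vip) and in 13.3% of the 32851 promoters of the table. A member was counted if any promoter listed for it held the motif, whereas the share of all promoters counts each singly. The member count and this share are therefore not on the same footing, and this holds for the palindrome too. The palindrome TGACGTCA, in which the motif on one strand overlaps that on the other, stood in Scg2, Cartpt and Th and in 1.36% of all promoters. In Scg2 it began 68 bases before the start, in Nmu a single TGACG began 114 bases before it, and in Tac1 the motif lay on the opposite strand from 43 bases before it. S100b, Ngfr and Chrna3 had none of these letters in the window. The motif was thus in members that were lower and in the member that was higher in DSS-treated KO colons, and it is a match of letters, not a measured binding site.

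Many of the members shared one order of the groups. Untreated KO colons had the highest values, both WT groups lay between, and DSS-treated KO colons had the lowest. All libraries followed this full order, with both untreated KO libraries above and all 3 DSS-treated KO libraries below every WT library, in 14 of 29 neuronal and 4 of 9 glial members. Of all tested genes, 7.50% did so. The lowest of the 10 values fell in a DSS-treated KO library for 33 of the 38 members, against 42.7% of all tested genes, and the highest in an untreated KO library for 30, against 29.2%.

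**Figure D1:**
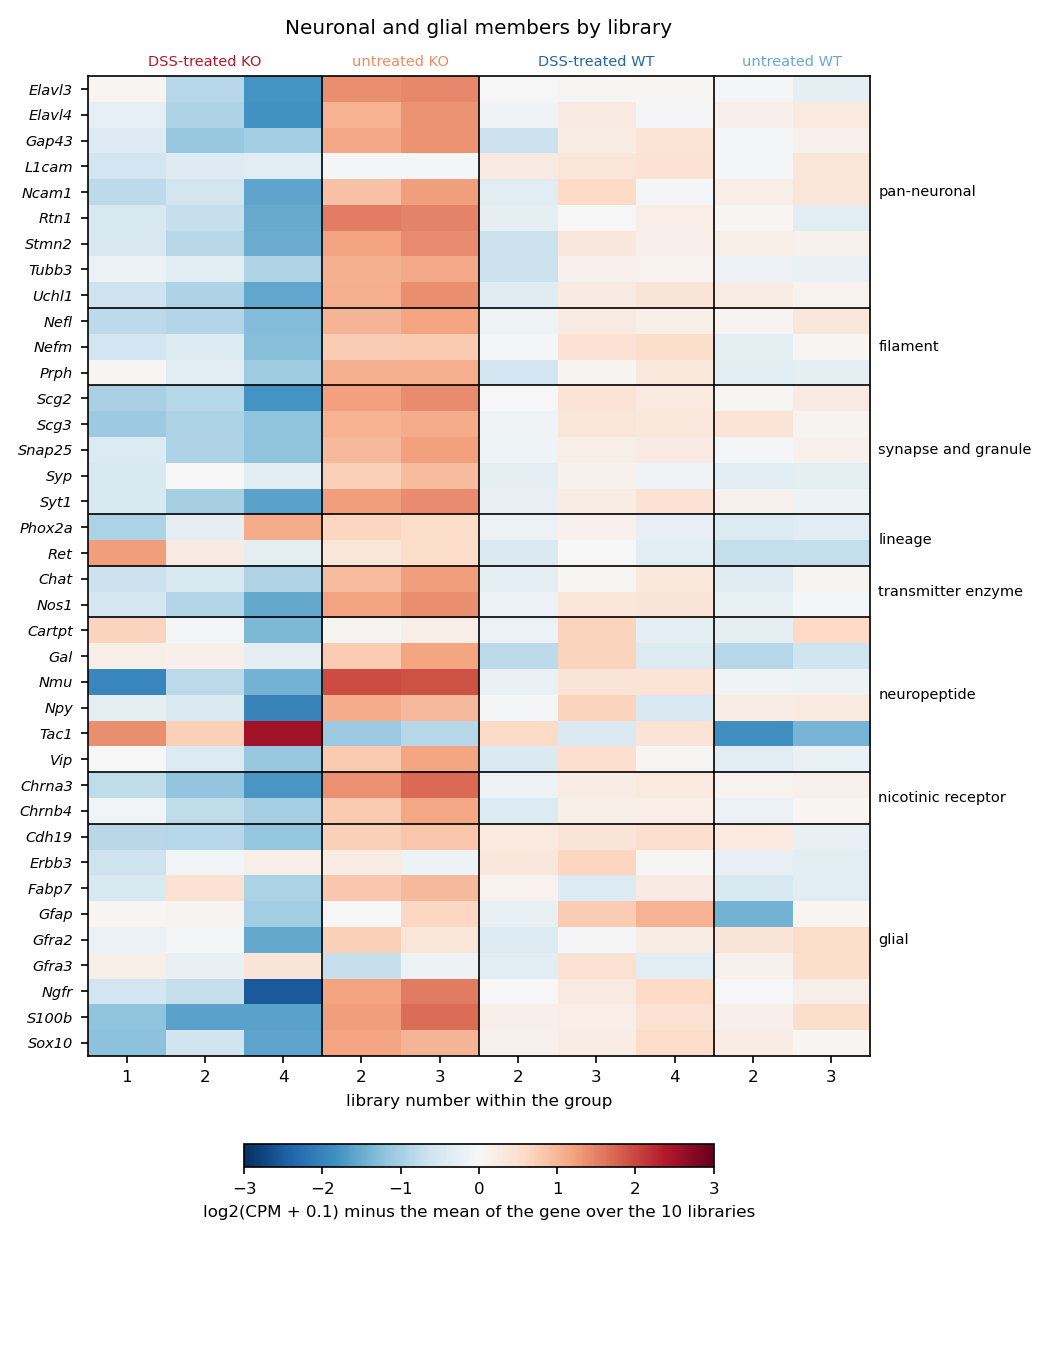
Heat map of the 38 members that passed the filter (rows, grouped by role) in the 10 libraries (columns, grouped by treatment and genotype). Colour gives log2(CPM + 0.1) minus the mean of the gene over the 10 libraries. The untreated KO columns are mostly red and the DSS-treated KO columns mostly blue. Tac1 differs, with its darkest red in DSS-treated KO library 4.

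To see how the neuronal and glial genes differed between the genotypes under DSS, DSS-treated KO colons were compared with DSS-treated WT colons. In the quasi-likelihood test of edgeR, with p-values adjusted by Benjamini-Hochberg over the 20472 genes (as for every adjusted p here), 14 of 29 neuronal members were lower, 1 (Tac1) was higher and 14 did not pass (call threshold 0.05). Of the 9 glial members, 4 were lower (S100b, Sox10, Ngfr and Cdh19) and 5 did not pass. The background was 14.9% of all tested genes lower and 14.9% higher. The median log2 fold change was -0.92 over the neuronal members (range -1.78 to 1.49), -0.84 over the glial members (range -2.02 to 0.15) and -0.04 over all tested genes. Every DSS-treated KO library lay below every DSS-treated WT library in 15 neuronal and 4 glial members, against 22.4% of all tested genes.

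Of these 19 calls, 11 held in each of the 10 fits that left out 1 library (Snap25, Nefl, Nos1, Nmu, Chrna3, Scg2, Scg3, L1cam, S100b, Sox10 and Cdh19). The count fell to 11 without DSS-treated WT library 4 and to 12 without DSS-treated WT library 3, all lower. Over all genes the number called lower also fell, from 3048 of 20472 to 2015 of 20396 and 1579 of 20383. Uchl1 lost its call without DSS-treated WT library 4 (adjusted p = 0.0504 in edgeR), and Nefm lost it without DSS-treated WT library 3 or 4 (up to 0.0736). Syt1 (up to 0.0734) lost it without either of these or DSS-treated KO library 2. Ncam1 (up to 0.114) lost it without either of these or DSS-treated KO library 4. Stmn2 (up to 0.164) and Rtn1 (up to 0.136) held it only without DSS-treated KO library 1 or DSS-treated WT library 2, and Ngfr (up to 0.123) only without DSS-treated KO library 1 or 4. Calls were also gained: Elavl3, Elavl4, Chrnb4 and Gap43 were lower without DSS-treated KO library 1, Gap43 also without DSS-treated WT library 2, and Erbb3 was lower and Ret higher without DSS-treated KO library 4 (adjusted p = 0.0113 to 0.0468 in edgeR).

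**Figure D2:**
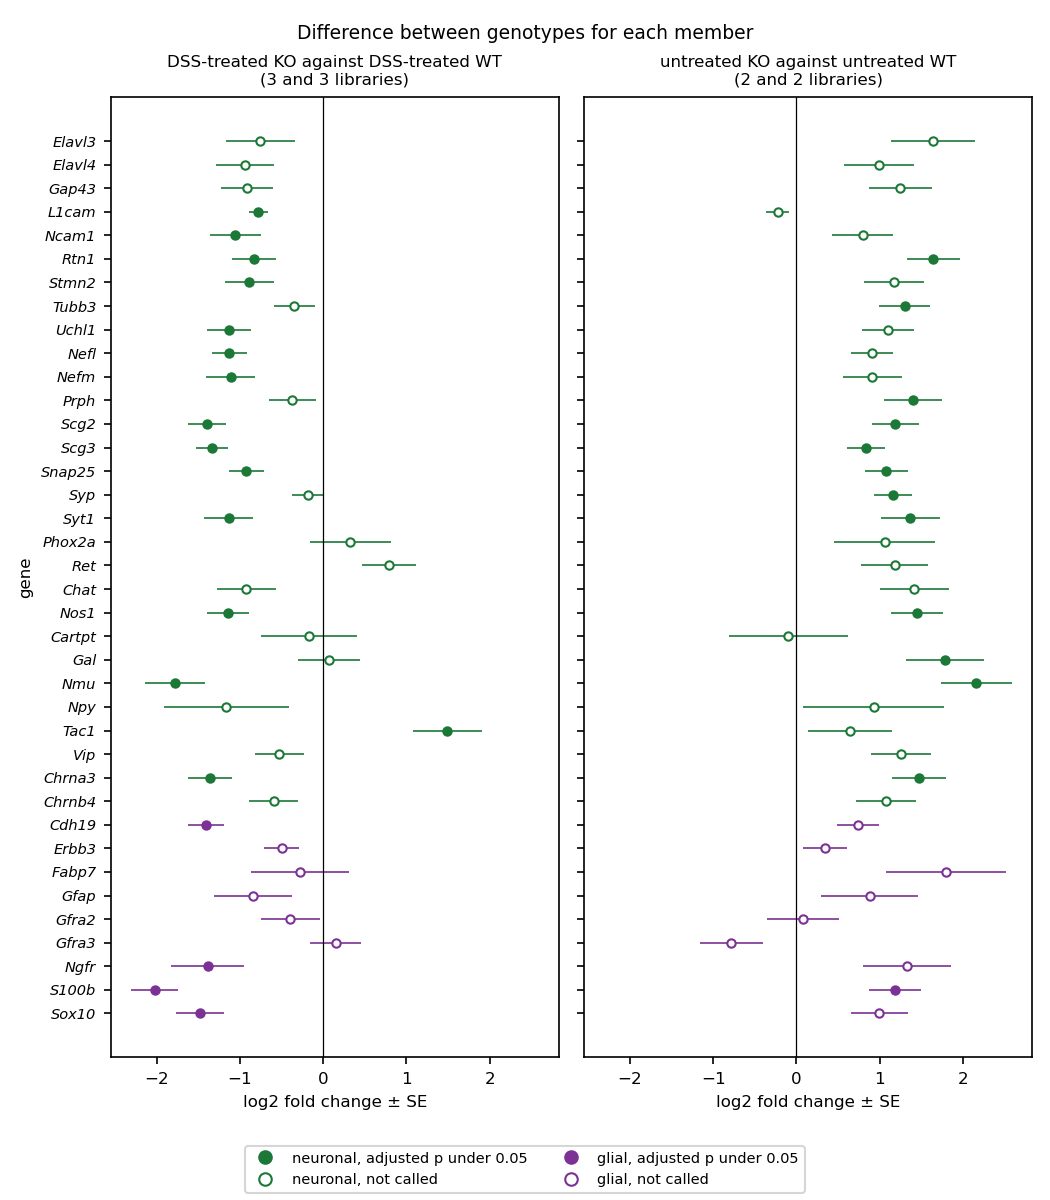
Log2 fold change between genotypes for each member, in DSS-treated mice (left, 3 and 3 libraries) and in untreated mice (right, 2 and 2 libraries). Points are edgeR estimates, bars their SE, green neuronal and purple glial members, filled points an adjusted p under 0.05. Most members lie left of 0 under DSS (33 of 38) and right of 0 without it (35 of 38).

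Within each genotype, DSS-treated mice were then compared with untreated mice. In KO colons, 24 of 29 neuronal members fell with DSS and 1, Tac1, rose, while 4 of 9 glial members fell (background 22.3% lower and 23.1% higher). The median log2 fold change was -2.11 over the neuronal and -1.44 over the glial members, against 0.02 over all genes. The calls of Npy, Vip and L1cam in this comparison depended on single libraries, as given with their values below, and the other 26 held without any 1 library. In WT colons no member passed at the same threshold (2 of 38 had an unadjusted p under 0.05, and DESeq2 called Tac1 alone), and 0.0244% of all genes did. The median there was 0.12 over the neuronal and 0.23 over the glial members.

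Without DSS, 12 of 29 neuronal members and 1 of 9 glial members, S100b, were higher in untreated KO than in untreated WT colons, and none was lower. Of all tested genes, 3.87% were higher and 5.97% lower. With upper-quartile factors 1120 genes were higher and 1047 lower, against 793 higher and 1223 lower with TMM, and 14 neuronal members and S100b were then higher. The median log2 fold change was 1.17 over the neuronal members, 0.88 over the glial members and 0.01 over all genes. With 2 libraries per group these 13 calls were the least firm. None held when an untreated KO or an untreated WT library was left out, which leaves 1 library in that group whose spread is taken from the other groups (adjusted p up to 0.0998 for Nmu and up to 0.274 for Scg3, edgeR). Leaving out library 4 of DSS-treated WT gave 6 calls, and leaving out library 1, 2 or 4 of DSS-treated KO gave 21, 8 and 22 calls. Over all genes these fits called 560 of 20396, 1322 of 20329, 695 of 20388 and 1252 of 20443 higher, so the counts moved together. A fit of only these 2 groups called 28 members higher and DESeq2 24. Calls over all genes rose as well, to 1895 of 19426 higher in the first and 1617 of 20472 in DESeq2.

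The response to DSS differed between the genotypes (interaction) for 23 neuronal and 4 glial members, all lower in KO. The background was 13.0% of genes lower and 13.8% higher. The median difference of responses was -2.03 on the log2 scale over the neuronal and -2.07 over the glial members. The count was 15 without untreated WT library 2 and 17 without untreated KO library 3, and 14 calls held in every fit that left out 1 library. These comparisons share libraries, so their directions are not independent of each other.

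By group means, the general neuronal markers except L1cam followed the common order. All libraries did so only in Elavl4, Uchl1, Rtn1 and Ncam1. Values in parentheses are log2 fold changes with their SE, the first-named group over the second. Elavl4, an RNA-binding protein of neurons known as HuD, had 2.79, 1.71 and 0.862 CPM in DSS-treated KO, 6.90 and 8.62 CPM in untreated KO, 3.08, 4.04 and 3.24 CPM in DSS-treated WT and 3.71 and 4.09 CPM in untreated WT colons. Each DSS-treated KO value lay below every WT value, at -0.94 (SE 0.35, adjusted p = 0.0698) on the log2 scale against DSS-treated WT, which passed in DESeq2 (0.0291) and not in edgeR, and -2.11 (SE 0.38, adjusted p = 0.002) against untreated KO. Its relative Elavl3, or HuC, had 1.54, 0.77 and 0.358 CPM in DSS-treated KO, 4.09 and 4.18 CPM in untreated KO, 1.49, 1.52 and 1.55 CPM in DSS-treated WT and 1.43 and 1.22 CPM in untreated WT colons. Here DSS-treated KO library 1 overlapped the WT libraries, and the fall against untreated KO (-2.20 (SE 0.45, adjusted p = 0.00358)) passed. Uchl1, the ubiquitin hydrolase PGP9.5, had 5.92, 4.79 and 3.05 CPM in DSS-treated KO, 19.8 and 24.6 CPM in untreated KO, 7.12, 11.2 and 12.0 CPM in DSS-treated WT and 10.7 and 9.97 CPM in untreated WT colons, without overlap between DSS-treated KO and WT. Its level was lower in KO than in WT colons under DSS (-1.14 (SE 0.26, adjusted p = 0.0118)).

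Tubb3, the neuronal beta-tubulin, had 5.85, 5.21 and 3.47 CPM in DSS-treated KO, 13.9 and 14.5 CPM in untreated KO, 4.19, 7.20 and 7.11 CPM in DSS-treated WT and 5.84 and 5.70 CPM in untreated WT colons. DSS-treated KO and DSS-treated WT values overlapped for this gene (-0.35 (SE 0.25, adjusted p = 0.314)), whereas untreated KO was higher than untreated WT (1.30 (SE 0.31, adjusted p = 0.0287)). Stmn2, a microtubule regulator of axons, had 6.01, 4.67 and 2.92 CPM in DSS-treated KO, 19.4 and 22.6 CPM in untreated KO, 5.33, 10.6 and 9.31 CPM in DSS-treated WT and 9.46 and 9.15 CPM in untreated WT colons. DSS-treated WT library 2 lay within the range of the DSS-treated KO libraries, and the difference (-0.89 (SE 0.29, adjusted p = 0.0471)) only just passed. Gap43, a growth cone protein, had 2.19, 1.27 and 1.39 CPM in DSS-treated KO, 6.66 and 7.54 CPM in untreated KO, 1.84, 3.41 and 3.94 CPM in DSS-treated WT and 2.78 and 3.19 CPM in untreated WT colons. Its DSS-treated WT library 2 also lay within the DSS-treated KO range, and the difference of -0.92 (SE 0.31, adjusted p = 0.0509) did not pass in edgeR but did in DESeq2 (0.0205), whereas the fall against untreated KO passed (-2.13 (SE 0.34, adjusted p = 0.00104)).

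Rtn1, a reticulon of the neuronal endoplasmic reticulum, had 5.29, 4.52 and 2.50 CPM in DSS-treated KO, 21.5 and 20.8 CPM in untreated KO, 6.01, 7.47 and 8.54 CPM in DSS-treated WT and 7.74 and 5.78 CPM in untreated WT colons. Its untreated KO values stood apart from all others, at 1.65 (SE 0.32, adjusted p = 0.0153) against untreated WT, and the DSS-treated KO values lay below all WT values (-0.83 (SE 0.26, adjusted p = 0.0388)). For Ncam1, a neural adhesion molecule, the values were 4.44, 5.31 and 2.52 CPM in DSS-treated KO, 14.5 and 18.6 CPM in untreated KO, 6.12, 11.9 and 7.57 CPM in DSS-treated WT and 8.96 and 10.1 CPM in untreated WT colons. The groups did not overlap between DSS-treated KO and DSS-treated WT (-1.06 (SE 0.31, adjusted p = 0.0288)). L1cam, an adhesion molecule of axons, had 53.8, 61.2 and 63.6 CPM in DSS-treated KO, 77.2 and 77.6 CPM in untreated KO, 97.0, 102 and 107 CPM in DSS-treated WT and 78.5 and 102 CPM in untreated WT colons. It was the pan-neuronal member whose untreated KO values did not exceed those of WT: they lay below both untreated WT values without passing (-0.22 (SE 0.14, adjusted p = 0.336)). Under DSS it was lower in KO than in WT (-0.78 (SE 0.11, adjusted p = 0.00172)), and its fall with DSS in KO (-0.38 (SE 0.13, adjusted p = 0.0326)) was lost without DSS-treated KO library 2 or either untreated KO library (adjusted p up to 0.133 in edgeR).

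The 3 intermediate filament genes, which build the axonal cytoskeleton, included 2 that were lower in KO than in WT colons under DSS and 1 that did not pass, and whether they differ from each other was not tested. Nefl, the light neurofilament chain, had 1.84, 1.71 and 1.26 CPM in DSS-treated KO, 6.68 and 7.48 CPM in untreated KO, 2.97, 3.89 and 3.69 CPM in DSS-treated WT and 3.44 and 4.12 CPM in untreated WT colons, and all 3 DSS-treated KO values lay below all 5 WT values (-1.13 (SE 0.21, adjusted p = 0.00478)). Nefm, the medium chain, lies 30450 bases from Nefl on chromosome 14 and had 0.987, 1.12 and 0.568 CPM in DSS-treated KO, 2.65 and 2.69 CPM in untreated KO, 1.49, 2.09 and 2.24 CPM in DSS-treated WT and 1.24 and 1.59 CPM in untreated WT colons. Its difference was of like size (-1.11 (SE 0.29, adjusted p = 0.0204)), at lower counts (27 to 188 per library). Prph, peripherin, the filament of peripheral neurons, had 10.2, 8.04 and 4.73 CPM in DSS-treated KO, 21.4 and 21.3 CPM in untreated KO, 6.68, 10.6 and 12.5 CPM in DSS-treated WT and 8.01 and 8.17 CPM in untreated WT colons. DSS-treated KO and WT overlapped for Prph (-0.37 (SE 0.29, adjusted p = 0.351)), and untreated KO lay above untreated WT (1.40 (SE 0.35, adjusted p = 0.0376)).

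Of the 5 genes of synapses and secretory granules, all were higher in untreated KO than in untreated WT colons, and 4 were lower in KO than in WT colons under DSS. Snap25, a SNARE protein of vesicle fusion, had 6.94, 4.84 and 3.95 CPM in DSS-treated KO, 18.4 and 21.8 CPM in untreated KO, 8.47, 10.4 and 11.1 CPM in DSS-treated WT and 8.88 and 10.1 CPM in untreated WT colons. It had no overlap between DSS-treated KO and any WT library (-0.93 (SE 0.21, adjusted p = 0.0111)). Syt1, the calcium sensor of release, had 4.17, 2.83 and 1.81 CPM in DSS-treated KO, 13.8 and 15.6 CPM in untreated KO, 4.82, 6.78 and 7.84 CPM in DSS-treated WT and 6.27 and 5.13 CPM in untreated WT colons, again without overlap and with a difference of -1.14 (SE 0.29, adjusted p = 0.0184). Syp, a membrane protein of synaptic vesicles that endocrine cells also carry, was the exception: it had 4.11, 5.76 and 4.46 CPM in DSS-treated KO, 9.45 and 11.0 CPM in untreated KO, 4.71, 6.28 and 5.32 CPM in DSS-treated WT and 4.52 and 4.67 CPM in untreated WT colons. Its DSS-treated KO and WT values overlapped (-0.19 (SE 0.18, adjusted p = 0.467)), while untreated KO was higher than untreated WT (1.16 (SE 0.23, adjusted p = 0.0152)).

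Scg2 and Scg3, granins that help to form dense-core granules in neurons and endocrine cells, had the largest estimates of these 5 genes under DSS. Scg2 had 5.50, 5.98 and 3.05 CPM in DSS-treated KO, 25.5 and 28.8 CPM in untreated KO, 10.9, 14.3 and 13.2 CPM in DSS-treated WT and 11.0 and 12.8 CPM in untreated WT colons. The highest DSS-treated KO value lay well under the lowest WT value (-1.40 (SE 0.23, adjusted p = 0.00299)), and untreated KO exceeded untreated WT (1.19 (SE 0.28, adjusted p = 0.029)). Scg3 had 1.81, 2.03 and 1.68 CPM in DSS-treated KO, 8.34 and 8.83 CPM in untreated KO, 3.74, 5.18 and 5.04 CPM in DSS-treated WT and 5.37 and 4.26 CPM in untreated WT colons, with the 3 DSS-treated KO libraries close together (-1.34 (SE 0.19, adjusted p = 0.00168)). Its higher level in untreated KO than in untreated WT colons was at the edge of the threshold (0.83 (SE 0.23, adjusted p = 0.0498)).

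The 2 lineage genes did not follow the order. Phox2a, a transcription factor of autonomic neurons, had 0.479, 0.82 and 2.31 CPM in DSS-treated KO, 1.66 and 1.53 CPM in untreated KO, 0.888, 1.13 and 0.838 CPM in DSS-treated WT and 0.74 and 0.789 CPM in untreated WT colons. Library 4 of DSS-treated KO was its highest value, and the other DSS-treated KO values lay below all those of DSS-treated WT. The difference under DSS was 0.33 (SE 0.49, adjusted p = 0.64), and without that library the estimate turned to -0.55 (adjusted p = 0.209 in edgeR). Without it Phox2a also passed for the fall with DSS in KO (-1.30, adjusted p = 0.014) and for the interaction (-1.61, adjusted p = 0.0305). Ret, the signalling receptor for the GDNF family that enteric neurons and their precursors need, ranged from 8.71 to 25.1 CPM in DSS-treated KO, with 13.4 and 15.5 CPM in untreated KO, 7.74 to 10.6 CPM in DSS-treated WT and 6.40 and 6.38 CPM in untreated WT colons. The DSS-treated groups overlapped (0.79 (SE 0.33, adjusted p = 0.0937)). Ret passed for this difference without DSS-treated KO library 4 (1.07, adjusted p = 0.0196), for untreated KO against untreated WT without DSS-treated KO library 1 or 4 (adjusted p = 0.0116 and 0.0354), and for the interaction without DSS-treated KO library 1 (-0.96, adjusted p = 0.0434). In the edgeR fit of all 4 groups and all libraries without a block, neither gene passed in any of the 5 comparisons. Between untreated KO and untreated WT, both passed in a fit of only these 2 groups (adjusted p = 0.00978 for Ret and 0.0448 for Phox2a in edgeR), and DESeq2 called Ret there and under DSS (adjusted p = 0.0234 and 0.045).

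Among the transmitter enzymes, Nos1, the neuronal nitric oxide synthase of inhibitory motor neurons, had 7.99, 6.11 and 3.83 CPM in DSS-treated KO, 26.3 and 29.9 CPM in untreated KO, 10.1, 14.6 and 14.9 CPM in DSS-treated WT and 9.71 and 10.9 CPM in untreated WT colons. The 3 DSS-treated KO values lay below and the 2 untreated KO values above all WT values, at -1.14 (SE 0.25, adjusted p = 0.00989) between DSS-treated KO and DSS-treated WT and 1.45 (SE 0.31, adjusted p = 0.0201) between untreated KO and untreated WT. Chat, which makes acetylcholine, was near the limit of detection, with 9 to 83 counts per library. It had 0.247, 0.285 and 0.189 CPM in DSS-treated KO, 0.949 and 1.19 CPM in untreated KO, 0.349, 0.451 and 0.577 CPM in DSS-treated WT and 0.322 and 0.476 CPM in untreated WT colons. These values kept the same order without overlap, but neither the difference under DSS (-0.92 (SE 0.35, adjusted p = 0.0746)) nor that without DSS (1.42 (SE 0.41, adjusted p = 0.0582)) passed, and the fall with DSS in KO did (-2.14 (SE 0.38, adjusted p = 0.00169)). Slc18a3, the vesicular acetylcholine transporter, lies within Chat on chromosome 14, and counts of these genes may share reads. Th had 0, 6 and 0 counts in DSS-treated KO, 10 and 2 in untreated KO, 0, 0 and 1 in DSS-treated WT and 0 and 9 in untreated WT colons, and 0 counts allow a level of up to 0.0435 to 0.0631 CPM in the 5 libraries without counts, for counting error alone.

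The neuropeptide genes were called in both directions under DSS. Nmu, neuromedin U, a peptide of enteric neurons that acts on innate lymphoid cells and smooth muscle, had 0.203, 0.569 and 0.337 CPM in DSS-treated KO, 4.41 and 4.26 CPM in untreated KO, 0.92, 1.43 and 1.46 CPM in DSS-treated WT and 0.981 and 0.953 CPM in untreated WT colons. Its untreated KO values were the highest by a wide margin, and its DSS-treated KO values lay below every WT value. Against DSS-treated WT the difference was -1.78 (SE 0.36, adjusted p = 0.0071). For untreated KO against untreated WT it was 2.16 (SE 0.42, adjusted p = 0.0153), the largest of the 38 members, at 14 to 298 counts per library. Vip, vasoactive intestinal peptide, a secretomotor and inhibitory transmitter, had 28.1, 21.2 and 12.7 CPM in DSS-treated KO, 48.2 and 64.2 CPM in untreated KO, 20.9, 40.1 and 28.7 CPM in DSS-treated WT and 22.6 and 24.4 CPM in untreated WT colons. DSS-treated KO and WT overlapped (-0.53 (SE 0.29, adjusted p = 0.198)), and the fall with DSS in KO (-1.44 (SE 0.32, adjusted p = 0.00562)) was lost without untreated KO library 3 (adjusted p = 0.0521 in edgeR).

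Tac1, the precursor of substance P and neurokinin A, was the member called higher in DSS-treated KO colons, both against DSS-treated WT and against untreated KO. It had 99.4, 62.3 and 216 CPM in DSS-treated KO, 17.8 and 20.9 CPM in untreated KO, 56.2, 28.0 and 49.9 CPM in DSS-treated WT and 10.5 and 14.3 CPM in untreated WT colons. All 3 DSS-treated KO values lay above all others, and those of DSS-treated WT lay above those of both untreated groups. The difference was 1.49 (SE 0.41, adjusted p = 0.0246) between DSS-treated KO and DSS-treated WT, which was lost without library 4 of DSS-treated KO or library 3 or 4 of DSS-treated WT (adjusted p up to 0.0891 in edgeR). Within KO the rise with DSS was 2.70 (SE 0.51, adjusted p = 0.0024). Within WT the log2 fold change was 1.85 and did not pass in edgeR (adjusted p = 0.458), though DESeq2 called it, and the responses of the genotypes did not differ by the test of the interaction (0.85 (SE 0.65, adjusted p = 0.362)).

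Gal, galanin, had 2.22, 2.18 and 1.60 CPM in DSS-treated KO, 3.38 and 4.58 CPM in untreated KO, 1.09, 3.17 and 1.44 CPM in DSS-treated WT and 1.04 and 1.26 CPM in untreated WT colons. It was higher in untreated KO than in untreated WT (1.78 (SE 0.47, adjusted p = 0.0431)) and overlapped between DSS-treated KO and DSS-treated WT (0.07 (SE 0.37, adjusted p = 0.9)). Npy, neuropeptide Y, had 0.232, 0.201 and 0 CPM in DSS-treated KO, 0.771 and 0.687 CPM in untreated KO, 0.285, 0.541 and 0.192 CPM in DSS-treated WT and 0.37 and 0.394 CPM in untreated WT colons, at 0 to 48 counts per library. Its fall with DSS in KO (-2.26 (SE 0.80, adjusted p = 0.0434)) was lost in 7 of the 10 fits that left out a library, and held only without library 1 or 4 of DSS-treated KO or library 3 of DSS-treated WT (adjusted p up to 0.134 in edgeR). Cartpt, the precursor of CART peptides, had 0.9, 0.502 and 0.147 CPM in DSS-treated KO, 0.573 and 0.615 CPM in untreated KO, 0.46, 0.902 and 0.412 CPM in DSS-treated WT and 0.418 and 0.855 CPM in untreated WT colons. Its groups overlapped in all comparisons, and its difference between DSS-treated KO and DSS-treated WT was -0.17 (SE 0.58, adjusted p = 0.847).

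The nicotinic receptor subunits alpha-3 and beta-4 form a ganglionic receptor for acetylcholine, and their genes lie 1592 bases apart on chromosome 9. Chrna3 had 1.79, 1.32 and 0.862 CPM in DSS-treated KO, 8.25 and 10.4 CPM in untreated KO, 2.78, 3.65 and 3.83 CPM in DSS-treated WT and 3.33 and 3.40 CPM in untreated WT colons. The DSS-treated KO libraries lay below and the untreated KO libraries above all WT libraries, with a difference of -1.36 (SE 0.27, adjusted p = 0.00616) under DSS and 1.47 (SE 0.32, adjusted p = 0.0223) without it. Chrnb4 had 2.15, 1.31 and 1.09 CPM in DSS-treated KO, 4.01 and 5.21 CPM in untreated KO, 1.70, 2.58 and 2.62 CPM in DSS-treated WT and 1.99 and 2.37 CPM in untreated WT colons. Its DSS-treated KO library 1 lay within the WT range and neither of these differences passed (-0.60 (SE 0.30, adjusted p = 0.156) and 1.08 (SE 0.36, adjusted p = 0.0887)), although the fall with DSS in KO did (-1.60 (SE 0.32, adjusted p = 0.00348)). Whether the neighbours differ from each other was not tested, and the annotation has Chrna3 overlap Chrna5, so that their counts may share reads.

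**Figure D3:**
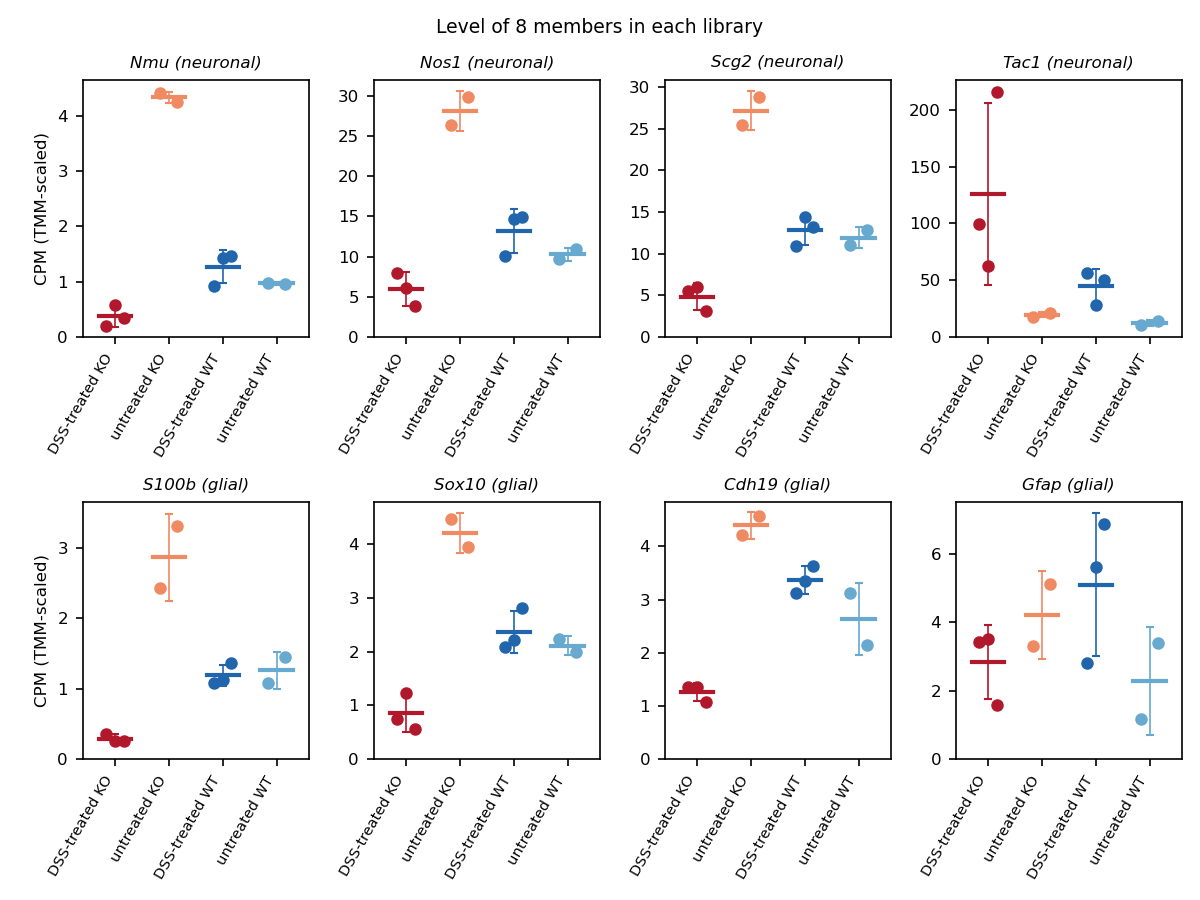
Level in CPM (linear axes from 0) of 4 neuronal members (top) and 4 glial members (bottom) in each library. Points are libraries, long bars the mean of a group and whiskers its SD (n = 3 in the DSS-treated and 2 in the untreated groups). In Nmu, Nos1, Scg2, S100b, Sox10 and Cdh19 the untreated KO points are the highest and the DSS-treated KO points the lowest. In Tac1 the DSS-treated KO points are the highest, and in Gfap the groups overlap.

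The glial members split into 4 that followed the order in all libraries and 5 that did not. S100b, a calcium-binding protein used to mark enteric glia, had 0.363, 0.251 and 0.252 CPM in DSS-treated KO, 2.43 and 3.30 CPM in untreated KO, 1.08, 1.13 and 1.36 CPM in DSS-treated WT and 1.08 and 1.45 CPM in untreated WT colons. Its DSS-treated KO values lay below all others, at -2.02 (SE 0.28, adjusted p = 0.00153) against DSS-treated WT, the largest decrease among the 38 members in this comparison, and untreated KO was higher than untreated WT (1.19 (SE 0.32, adjusted p = 0.0451)). Sox10, the transcription factor of neural crest and glial identity, had 0.755, 1.22 and 0.568 CPM in DSS-treated KO, 4.47 and 3.95 CPM in untreated KO, 2.08, 2.22 and 2.81 CPM in DSS-treated WT and 2.23 and 1.99 CPM in untreated WT colons. It was likewise without overlap (-1.48 (SE 0.29, adjusted p = 0.00597)). Cdh19, a cadherin of Schwann cells and glia, had 1.36, 1.36 and 1.07 CPM in DSS-treated KO, 4.21 and 4.58 CPM in untreated KO, 3.12, 3.35 and 3.64 CPM in DSS-treated WT and 3.12 and 2.15 CPM in untreated WT colons, with a tight DSS-treated KO group (-1.41 (SE 0.21, adjusted p = 0.00202)). Ngfr, the p75 neurotrophin receptor, had 2.18, 1.96 and 0.484 CPM in DSS-treated KO, 7.61 and 9.88 CPM in untreated KO, 3.25, 3.94 and 5.03 CPM in DSS-treated WT and 3.23 and 3.71 CPM in untreated WT colons. DSS-treated KO library 4 was the lowest by a margin, and the difference (-1.39 (SE 0.44, adjusted p = 0.0398)) was among those that rested on single libraries.

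Gfap, the intermediate filament of reactive glia and astrocytes, had 3.43, 3.50 and 1.58 CPM in DSS-treated KO, 3.30 and 5.12 CPM in untreated KO, 2.81, 5.62 and 6.88 CPM in DSS-treated WT and 1.17 and 3.40 CPM in untreated WT colons. Its libraries spread widely within groups, and no comparison passed (log2 fold change 1.16 with DSS in WT and -0.57 with DSS in KO, adjusted p = 0.722 and 0.396 in edgeR). Fabp7, a fatty acid-binding protein of radial glia and enteric glia, was close to the limit of detection, with 0.131, 0.335 and 0.0631 CPM in DSS-treated KO, 0.455 and 0.515 CPM in untreated KO, 0.238, 0.135 and 0.275 CPM in DSS-treated WT and 0.129 and 0.148 CPM in untreated WT colons. Untreated KO had its 2 highest values, but the difference from untreated WT did not pass (1.80 (SE 0.72, adjusted p = 0.146)).

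Gfra2, the co-receptor for neurturin, which enteric neurons also carry, had 3.12, 3.43 and 1.16 CPM in DSS-treated KO, 5.83 and 4.53 CPM in untreated KO, 2.63, 3.40 and 4.13 CPM in DSS-treated WT and 4.62 and 5.19 CPM in untreated WT colons. DSS-treated KO library 4 was the lowest, the other DSS-treated KO libraries lay within the DSS-treated WT range, and the fall with DSS in KO did not pass (adjusted p = 0.0623 in edgeR), although it did with upper-quartile factors (0.0424), in DESeq2 (0.0273) and without DSS-treated KO library 2 (0.0449). Gfra3, the co-receptor for artemin, had 2.12, 1.57 and 2.44 CPM in DSS-treated KO, 1.11 and 1.65 CPM in untreated KO, 1.48, 2.58 and 1.47 CPM in DSS-treated WT and 2.03 and 2.73 CPM in untreated WT colons. It was the glial member with a positive estimate under DSS (0.15 (SE 0.31, adjusted p = 0.74)), with overlap between the DSS-treated groups, while both untreated KO values lay below both untreated WT values without passing (-0.78 (SE 0.38, adjusted p = 0.224)). Erbb3, a neuregulin receptor that epithelial cells also make, had 173, 253 and 301 CPM in DSS-treated KO, 311 and 241 CPM in untreated KO, 337, 419 and 274 CPM in DSS-treated WT and 224 and 210.2 CPM in untreated WT colons. It overlapped between DSS-treated KO and DSS-treated WT (-0.50 (SE 0.22, adjusted p = 0.106)), and its level per kilobase of merged exons was the highest of the members (mean 45.6 CPM per kb over the 10 libraries), against 0.194 to 1.20 CPM per kb for the other 8 glial members.

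Neuronal and glial members were then set beside each other. The number called lower under DSS was 14 of 29 neuronal and 4 of 9 glial members. Leaving Gfra2 and Gfra3 out of the glial class gave 4 of 7 and a median log2 fold change of -1.39. Leaving out 7 neuronal members that other cells, such as endocrine cells, may also make (Ncam1, Rtn1, Scg2, Scg3, Syp, Uchl1 and Tac1) gave 9 of 22 and a median of -0.90. L1cam was kept in that class, so it need not be free of RNA from other cells. Leaving Ngfr, which many other cells also make, out of the glial class gave 3 of 8 and a median of -0.67, and leaving out Erbb3 instead gave 4 of 8 and a median of -1.12. Taken as the mean log2 CPM of a class, the glial minus the neuronal members came to -0.73, -0.36 and -0.60 in DSS-treated KO, -0.82 and -0.83 in untreated KO, -0.27, -0.53 and -0.28 in DSS-treated WT and -0.48 and -0.37 in untreated WT libraries. The DSS-treated KO and DSS-treated WT values overlapped. The untreated KO values lay below all others, but not when Erbb3 was left out, when they were -1.58 and -1.52 against -1.53, -1.21 and -1.58 in DSS-treated KO. Without DSS the counts called higher were 12 of 29 neuronal and 1 of 9 glial members, although 27 neuronal and 8 glial estimates were positive, and the difference between the classes was not tested.

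By level per kilobase, Tac1 (16.9 CPM per kb), L1cam (11.2) and Vip (9.15) led the neuronal members, and Elavl3 (0.263) and Chat (0.107) were the lowest that passed the filter. Members at quite different levels, namely L1cam, Scg2 (5.21 CPM per kb), Chrna3 (0.752) and Nefm (0.288), were lower in KO than in WT colons under DSS.

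Other genes of the same cells were taken from lists drawn up with earlier results of these data known. Of 54 further neuronal genes that were tested, 26 were lower and 0 higher in KO than in WT colons under DSS (28 did not pass, median log2 fold change -0.93), the smallest adjusted p being that of Ache, acetylcholinesterase (-1.19 (SE 0.10, adjusted p = 0.00028)). In untreated KO against untreated WT, 15 of these were higher and 1, Map2, was lower (-1.17 (SE 0.24, adjusted p = 0.0187)). Of 19 further glial genes, 10 were lower and 3 higher under DSS (median -0.98), among them Kcna1, a potassium channel, at -1.52 (SE 0.20, adjusted p = 0.00134), and Metrn, a secreted factor of glia, at 1.10 (SE 0.20, adjusted p = 0.00419). Without DSS 0 of these 19 were higher and 1 lower, with 5 at an unadjusted p under 0.05. Summed, the 19 glial genes were at 378.8 to 483.7 CPM in DSS-treated KO and 290.7 and 319.6 CPM in untreated KO colons. In WT colons the sum was 363.8 to 391.5 CPM with DSS and 372.7 and 408.7 CPM without it. The sum thus did not follow the order of the members. Their mean log2 CPM did, at 0.841 to 1.49 in DSS-treated KO, 2.31 and 2.24 in untreated KO and 1.80 to 2.16 in WT libraries.

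Of 17 neurotrophic ligands and receptors, 5 were lower and 0 higher under DSS. Gdnf, the ligand that acts through Gfra1 and Ret, had 0.32, 0.117 and 0.0841 CPM in DSS-treated KO, 2.39 and 2.55 CPM in untreated KO, 0.904, 1.16 and 1.15 CPM in DSS-treated WT and 1.25 and 1.15 CPM in untreated WT colons. Gfra1 had 1.44, 1.36 and 0.841 CPM in DSS-treated KO, 8.34 and 9.68 CPM in untreated KO, 2.73, 3.58 and 3.97 CPM in DSS-treated WT and 4.20 and 4.67 CPM in untreated WT colons. The values of both genes lay lower in each DSS-treated KO library than in any WT library (-2.56 (SE 0.42, adjusted p = 0.00284) for Gdnf and -1.49 (SE 0.24, adjusted p = 0.00278) for Gfra1), unlike those of Ret. Of 17 receptors and effectors through which transmitters act on muscle, epithelium and other target cells, 12 were lower and 0 higher, with Tacr2, a receptor for tachykinins such as neurokinin A, at -3.08 (SE 0.33, adjusted p = 0.000592). The noradrenergic gene Dbh differed between KO and WT by -1.51 (SE 0.34, adjusted p = 0.00998) under DSS and 1.59 (SE 0.40, adjusted p = 0.0387) without it, on the log2 scale. Which cells made its RNA was not tested.

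Markers of the muscle layers in which the myenteric plexus lies moved with the members. All 16 smooth muscle genes were lower in KO than in WT colons under DSS (median log2 fold change -1.95), and 11 were higher in untreated KO than in untreated WT colons (median 1.27). Their summed level was 1074 to 1550 CPM in DSS-treated KO, 11822 and 13858 CPM in untreated KO, 3615 to 6393 CPM in DSS-treated WT and 4220 and 6384 CPM in untreated WT colons, and none of the 16 was at 0. All 5 genes of interstitial cells of Cajal, the pacemaker cells beside the plexus, were also lower under DSS (median -1.17), but without DSS 0 were higher and 1 was lower. Of 16 endocrine cell genes, some of which share granule proteins with neurons, 8 were lower and 0 higher under DSS (median -0.61), and 1 was higher without DSS. The summed level of the endocrine genes was 207 to 243 CPM in DSS-treated KO, 288 and 357 CPM in untreated KO, 346 to 367 CPM in DSS-treated WT and 341 and 343 CPM in untreated WT colons.

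Markers of immune cells and stress followed other patterns. Of 9 macrophage genes, 5 were lower in KO than in WT colons without DSS (median log2 fold change -1.62) and 0 were called under DSS (median -0.57, 4 at an unadjusted p under 0.05 in edgeR). Their summed level was 146 to 296 CPM in DSS-treated KO, 154 and 159 CPM in untreated KO, 220 to 474 CPM in DSS-treated WT and 410 and 534 CPM in untreated WT colons. Of 8 lymphocyte genes, 3 were lower without DSS and 4 were lower under DSS (median -0.96), with summed levels of 39.4 to 138 CPM in DSS-treated KO, 13.3 and 62.4 CPM in untreated KO, 44.3 to 90.1 CPM in DSS-treated WT and 64.8 and 190.4 CPM in untreated WT colons. Of 8 immediate-early and stress genes, among them Fos, Egr1 and Hspa1a, 4 were higher in untreated KO than in untreated WT colons (median 1.00), as were many members, and 5 fell with DSS in KO colons (median -1.20). Between DSS-treated KO and DSS-treated WT colons, 1 of them was higher and 0 were lower (median -0.01). They summed to 500 to 839 CPM in DSS-treated KO, 1070 and 1091 CPM in untreated KO, 511 to 617 CPM in DSS-treated WT and 630 and 651 CPM in untreated WT colons. Of these 3 lists, Ncr1, a receptor of natural killer cells, was at 0 in both untreated KO libraries and in 2 others, and the other genes had counts in every library. The part of these genes in the results on the members was not tested.

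Among the other lists, 2 of 4 genes listed as sympathetic were lower under DSS and 2 higher without it. Of 7 fibroblast genes 1 was lower under DSS (median -0.82), of 14 epithelial genes 1 was lower and 2 were higher (median 0.08), and of 6 endothelial and 5 adipose genes 0 were called (medians -0.32 and -1.23, 1 of each at an unadjusted p under 0.05 in edgeR). Without DSS 2 epithelial genes were higher, and none of the fibroblast, endothelial and adipose genes passed or had an unadjusted p under 0.05.

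The median differences were smaller for the members than for the smooth muscle genes. The mean log2 CPM of the neuronal members minus that of the smooth muscle genes was -3.22, -3.91 and -3.80 in DSS-treated KO, -5.34 and -5.37 in untreated KO, -4.77, -5.08 and -4.68 in DSS-treated WT and -5.00 and -5.42 in untreated WT libraries. For the glial members it was -3.95, -4.27 and -4.40 in DSS-treated KO, -6.17 and -6.21 in untreated KO, -5.04, -5.61 and -4.96 in DSS-treated WT and -5.48 and -5.79 in untreated WT libraries. Relative to smooth muscle, both classes were therefore higher in every DSS-treated KO library than in any other library. The part of muscle content in the results on the members was not tested.

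**Figure D4:**
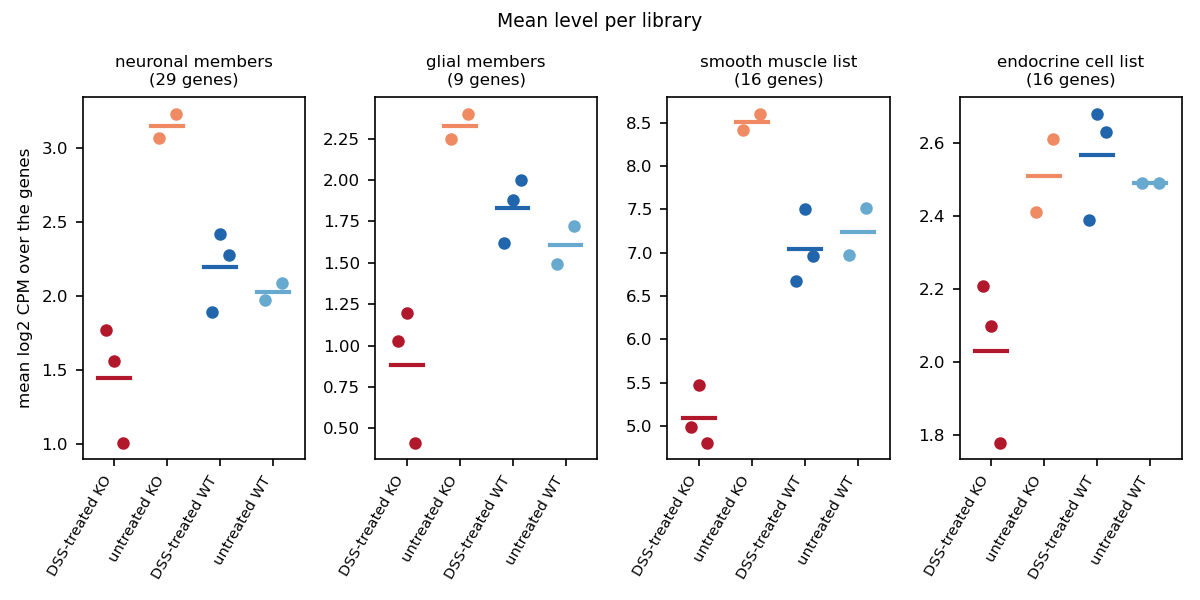
Mean log2 CPM per library over the 29 neuronal members, the 9 glial members, 16 smooth muscle genes and 16 endocrine cell genes, each panel on its own axis. Points are libraries and bars the mean of a group (n = 3 in the DSS-treated and 2 in the untreated groups). In the first 3 panels untreated KO is the highest and DSS-treated KO the lowest group, and in the endocrine panel only the low position of DSS-treated KO recurs.

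Counts of 8 members may share reads with another gene of the table that overlaps them on GRCm38.p6 (Snap25, Nefm, Phox2a, Chat, Nmu, Chrna3, Rtn1 and Erbb3), since the sources used here do not say whether counting used strand. The members lie on many chromosomes. S100b spans 76253836 to 76261319 on chromosome 10, Scg2 79434366 to 79440026 on chromosome 1, Nos1 117866839 to 117958840 on chromosome 5, and Tac1 7555061 to 7562978 on chromosome 6.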

How the data were processed

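Colon RNA of 10 libraries was sequenced by the authors after a stranded mRNA kit. The processing notes of the submitters list, without order or role, StringTie 2.1.3b, HISAT2 2.1.0, Trimmomatic 0.38 and Bowtie2 2.3.4.1 and the build mm10. The authors deposited 1 table of raw read counts per gene and library, which were used as deposited. Its 30 columns of other per-library values, 8 columns of the authors' own fold changes and p-values and 4 group means were not used. Count columns name the group and a number that differs from the numbering of the titles, so they were assigned by group alone. The sources used here do not state how multiply mapped reads were treated.

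The analysis used edgeR 4.0.16 and limma 3.58.1 in R 4.3.3. Genes were filtered with edgeR's default filter on the 4 groups, scaled by TMM and fitted with a quasi-likelihood model of all 10 libraries and a mean per group, with Benjamini-Hochberg adjustment over the 20472 genes kept and calls at 0.05. The steps were tested on simulated counts. Each pair of libraries of the same group was further apart than counting noise (average chi-square of 47.9 to 196 for a gene). Mean log2 CPM used a prior count of 2. Positions and promoters come from RefSeq (GRCm38.p6, all 39 members matched and 27 with a promoter), and merged exon lengths from GENCODE M21.

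The members, their 2 classes and 15 lists (209 genes) of other cell types were chosen with earlier results of these data known. All 39 members were accounted for, with values in every library for glial members, called neuronal members, transmitter enzymes and neuropeptides. From each list at most 4 genes with the smallest adjusted p were named. Alternatives were RLE and upper-quartile factors, DESeq2 1.42.0, no filter, a filter of 10 counts in every library, a fit of the compared groups alone, the screen of the study (p under 0.01 and fold over 3), the library number as a block, other class assignments, and leaving out each library.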

Additional observations from a re-analysis of the deposited data

Results flagged for a closer look

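The response to DSS differed between the genotypes for 27 members by the interaction of edgeR's quasi-likelihood fit, each value being the log2 response of KO minus that of WT. Among general neuronal markers it was -2.40 for Elavl3, -1.93 for Elavl4, -2.23 for Uchl1, -1.65 for Tubb3, -2.06 for Stmn2, -2.17 for Gap43, -2.48 for Rtn1, -1.85 for Ncam1 and -0.56 for L1cam. Among filaments it was -2.03 for Nefl, -2.03 for Nefm and -1.77 for Prph. Genes of synapses and granules gave -2.01 for Snap25, -2.50 for Syt1, -1.34 for Syp, -2.59 for Scg2 and -2.17 for Scg3. The enzymes Chat and Nos1 gave -2.34 and -2.59, the peptides Vip and Nmu -1.79 and -3.94, and the receptor subunits Chrna3 and Chrnb4 -2.83 and -1.68. Among glial members it was -3.21 for S100b, -2.47 for Sox10, -2.72 for Ngfr and -2.15 for Cdh19.

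The largest difference was that of Nmu (adjusted p = 0.00212) and the smallest called one that of L1cam (adjusted p = 0.044, edgeR). L1cam lost its call in 7 of the 10 fits that left out 1 library (adjusted p up to 0.174), Elavl4 in 7 (up to 0.101) and Chrnb4 in 6 (up to 0.102). The calls of Elavl3, Tubb3, Stmn2, Prph, Nefm, Chat, Vip, Gap43, Ncam1 and Ngfr were lost in 1 to 4 of these fits, each without an untreated library. The members without a called difference were Phox2a, Ret, Gal, Npy, Tac1, Cartpt, Gfap, Gfra2, Gfra3, Erbb3 and Fabp7, with adjusted p between 0.0597 for Gal and 0.964 for Cartpt.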

How the results depend on the processing

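No member changed direction where it was called, and of the values of single members under the alternatives 3053 kept their side of the threshold, 219 lost a call and 90 gained one. The 3053 values include those called in neither the main fit nor the alternative, so they do not measure how many calls held. The screen of p under 0.01 and fold over 3 called 2 members lower between DSS-treated KO and DSS-treated WT (Nmu and S100b). Of all 20472 genes it called 644 lower and 246 higher there. Between untreated KO and untreated WT it called 4 members higher, against 238 genes higher and 739 lower. With DSS in WT it called 1 member (Tac1) higher, against 52 genes higher and 34 lower, and DESeq2 also called 1. DESeq2 called 24 members and a fit of the compared groups alone 28 between untreated KO and untreated WT. Over all genes these called 1617 of 20472 and 1895 of 19426 higher, against 793 of 20472 in the main fit. Leaving out 1 library gave 11 to 23 calls between DSS-treated KO and DSS-treated WT, 0 to 22 between untreated KO and untreated WT and 15 to 29 for the interaction. The other alternatives left these counts within 1.5 times the values reported. With upper-quartile factors the median log2 fold change of all genes between DSS-treated KO and DSS-treated WT was -0.11, against -0.04 with TMM. The causes were not tested.

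Deviations from the group mean in libraries that share a number had correlations of -0.137 to 0.162 (10 pairs, 2 over 0.1). Pairs with a DSS-treated KO library ran from -0.137 to 0.0797, and those without one were all positive (0.018 to 0.162). Pairs with different numbers ran from -0.162 to 0.19. In a group of 2 libraries the deviations mirror each other, so these correlations cannot decide whether the numbers pair libraries. The main fit did not treat them as pairs. With the number as a replicate block the counts were 17 between DSS-treated KO and DSS-treated WT, 27 with DSS in KO, 0 with DSS in WT, 15 between untreated KO and untreated WT and 25 for the interaction. Between DSS-treated KO and DSS-treated WT, Tac1 (1.25, adjusted p = 0.0875 in edgeR), Stmn2, Nefm, Ncam1 and Ngfr were not called with the block, and Elavl3, Elavl4 and Gap43 were. Ret was called with it between untreated KO and untreated WT (adjusted p = 0.0163).

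At 2 or 3 libraries per group, Npy, Fabp7 and Cartpt, under 1 CPM in every library, had the largest SE of the tested members between DSS-treated KO and DSS-treated WT (0.76, 0.59 and 0.58). Values that did not pass do not show that groups were alike.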
